A study of Mus musculus with 20 samples.

Results

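Synaptic vesicle release machinery is described here through 44 listed genes: the synaptotagmins, the SNARE proteins of the vesicle and of the plasma membrane, the complexins and other SNARE regulators, the Munc13 and RIM proteins, the Rab3 proteins and rabphilin, and the synapsins, SV2 proteins and synaptophysin. The rule that chose them names genes and uses no measured value, although the genes were chosen with earlier results of these data known. Of the 44 genes, 43 were found among the 37620 genes of the expression table and 40 passed the filter for testing. Vamp7 was not matched and is not analysed here, and Syt10, Syt12 and Cplx3 lay under the filter of a group mean of 1 RPKM. RPKM is the number of reads scaled to gene length and library size, and levels are given as log2 RPKM.

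RNA was sequenced from whole dorsal root ganglia (DRG), which hold the cell bodies of sensory neurons and their glia, of C57Bl6 mouse embryos at E18.5, the last days before birth. Each of 10 donor embryos, 5 male (M1, M3, M5, M7 and M8) and 5 female (F3, F7, F8, F9 and F10), gave 1 lumbar library (ganglia L4-5) and 1 sacral library (ganglia L6-S1), so the 20 libraries formed 4 groups of 5. The labels give no transgene or treatment for any group, and the 4 groups are named by spinal level and sex alone.

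At a nerve terminal, a vesicle filled with transmitter is docked and primed at the active zone by RIM and Munc13 proteins. VAMP on the vesicle and syntaxin with SNAP-25 on the plasma membrane then zip into a SNARE complex, complexin clamps it, and synaptotagmin triggers fusion when calcium enters. NSF takes the spent complex apart, the Rab3 proteins tether vesicles, and the synapsins hold the reserve pool. Primary sensory neurons carry this machinery to their central terminals in the spinal cord and also release peptides from their peripheral endings. The ganglion holds the cell bodies where these transcripts are made. Some relatives, such as SNAP-23 and VAMP3, serve membrane fusion in most cell types.

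The libraries held between 19606265 and 39678967 reads, as recovered from the deposited values. All 12 pan-neuronal markers and all 11 Schwann cell and satellite glia markers had reads in every library, while none of 9 spinal cord markers passed the filter and their summed level was 0.137 to 2.18 RPKM. The 2 mitochondrial ribosomal RNA genes took 17.83% to 61.05% of the reads. The mt-Rnr2 level, that of the large mitochondrial ribosomal RNA, was lowest at 15.89 log2 RPKM in the sacral library of F3 and highest at 18.56 in the lumbar library of M5. The sacral library of F7 stood apart from the rest: it had the fewest reads, and 27 of the 40 tested release genes had their lowest level in it. The summed level of the 12 pan-neuronal markers was 651 RPKM there, against up to 2330 RPKM in the other sacral female libraries. The main counts and medians that rest on it are given with and without donor F7. In bulk samples such as these, fewer neurons and less RNA per neuron cannot be told apart.

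The 250 bases upstream of the start of 4 release genes are shown because the results turn on them: Rab3b and Unc13c, which differed between the spinal levels, Syp, whose level fell most steeply with mt-Rnr2, and Snap23, whose level rose most steeply with it. Capitals mark matches, on either strand, to the GC box (GGGCGG), the CCAAT box (CCAAT), the TATA box (TATAAA), the E-box (CACGTG) and the cyclic AMP response element (TGACGTCA). The sequences run 5′ to 3′ on the strand of the gene and come from RefSeq on build GRCm38.p6: Rab3b at chr4:108878820-108879069, plus strand; Unc13c at chr9:73969038-73969287, minus strand; Syp at chrX:7638330-7638579, plus strand; and Snap23 at chr2:120567421-120567670, plus strand.
Rab3b: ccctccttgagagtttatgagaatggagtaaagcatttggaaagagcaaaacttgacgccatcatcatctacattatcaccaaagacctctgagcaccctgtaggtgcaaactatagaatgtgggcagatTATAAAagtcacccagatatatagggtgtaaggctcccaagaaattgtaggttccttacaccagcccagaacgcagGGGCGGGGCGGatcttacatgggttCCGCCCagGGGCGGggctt
Unc13c: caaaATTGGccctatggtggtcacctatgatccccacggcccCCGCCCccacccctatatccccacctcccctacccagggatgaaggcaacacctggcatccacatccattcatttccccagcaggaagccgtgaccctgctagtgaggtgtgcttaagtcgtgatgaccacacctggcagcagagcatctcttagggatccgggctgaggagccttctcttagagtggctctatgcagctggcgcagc
Syp: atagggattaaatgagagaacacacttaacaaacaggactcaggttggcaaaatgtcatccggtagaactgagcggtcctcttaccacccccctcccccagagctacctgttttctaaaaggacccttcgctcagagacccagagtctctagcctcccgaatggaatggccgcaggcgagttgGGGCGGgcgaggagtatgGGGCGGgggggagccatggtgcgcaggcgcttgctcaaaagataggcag
Snap23: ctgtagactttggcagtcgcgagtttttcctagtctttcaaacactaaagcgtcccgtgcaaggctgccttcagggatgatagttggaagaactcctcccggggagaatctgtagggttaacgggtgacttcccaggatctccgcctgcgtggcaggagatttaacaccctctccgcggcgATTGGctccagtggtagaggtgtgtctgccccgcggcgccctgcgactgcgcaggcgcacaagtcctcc

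The Rab3b window held 4 GC box matches, a pair of them overlapping, and 1 TATA box match. The Unc13c window held 1 CCAAT and 1 GC box match, Syp held 2 GC boxes, and Snap23 held 1 CCAAT box and no GC box. Over the release genes, 31 of the 40 tested genes had 44 promoter windows in the RefSeq table, and Snap25 had none. A GC box stood in 61.4% of those 44 windows and in 42.6% of the 21263 windows of all protein-coding genes. The CCAAT box stood in 27.3% of the release gene windows against 35.4% of all, the TATA box in 11.4% against 11.6%, the E-box in 13.6% against 6.63% and the cyclic AMP response element in 2.27% against 1.92%. The median number of CpG dinucleotides was 13 per release gene window and 10 over all windows. Several windows belong to 1 gene, so these shares are a description, and a match is not a known binding site.

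Most of the machinery was expressed well above the typical gene. Ranked by mean log2 RPKM over the 20 libraries among the 29049 genes with a value, 5 of the 43 release genes stood in the top 300, 15 in the top 1000 and 24 in the top 3000, while Syt10 (rank 21393) and Cplx3 (rank 27739) stood lowest. Snap25, the SNAP-25 gene, ranked highest at 111 with a level of 135 RPKM. Cplx1 (complexin 1) followed at rank 137, Syp (synaptophysin, a vesicle membrane protein) at 217, Syt11 at 232 and Syn1 (synapsin I) at 254. The lowest tested genes were Stx3 at rank 13103, Syt6 at 12718, Syt3 at 10594, Syt13 at 8733 and Stxbp5 at 6920. The summed level of the release genes ran from 441 RPKM in the sacral library of F7 to 1660 RPKM in the lumbar library of M8.

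**Figure D1:**
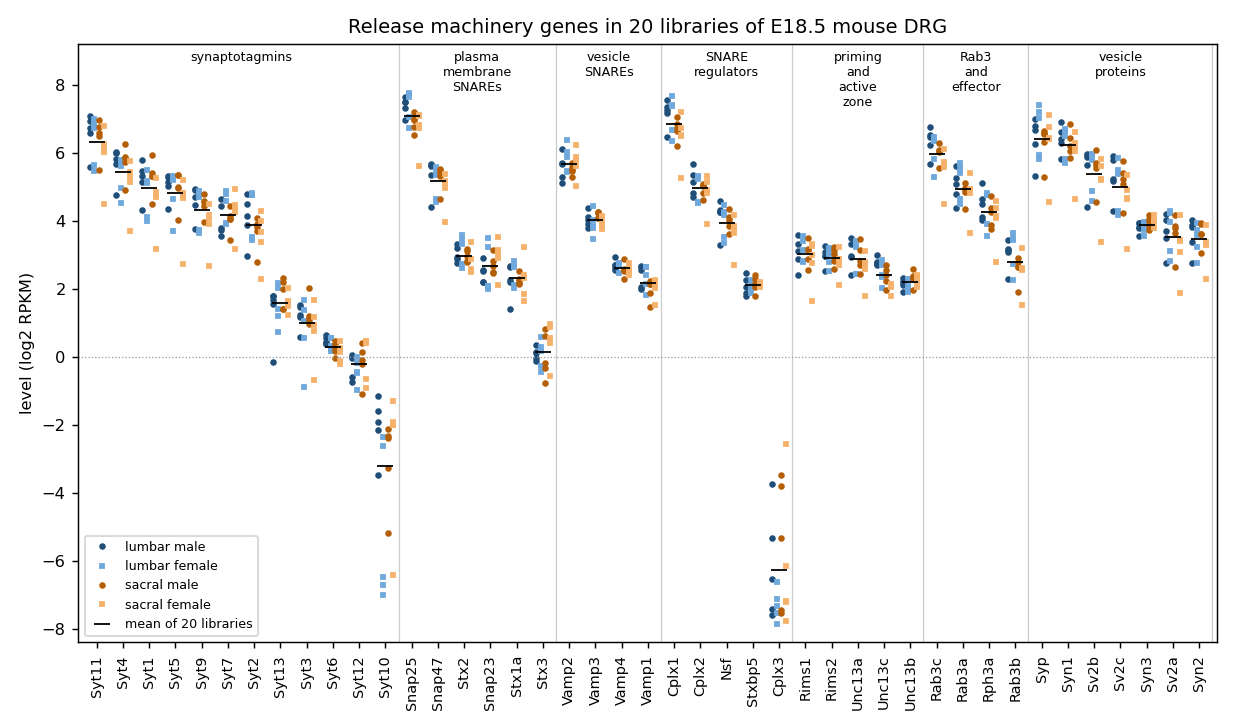
Level of the 43 release genes found, in log2 RPKM on the vertical axis, with 1 point per library (5 per group) and a bar at the mean of the 20 libraries. Genes are ordered by level within each role. Snap25, Cplx1 and Syp lie at the top of their groups, and Syt10 and Cplx3, where a library with 0 reads is drawn at the value of 0.5 reads, lie at the bottom.

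In what follows, group levels are given as mean log2 RPKM ± SD over 5 libraries, in the order lumbar male, lumbar female, sacral male and sacral female. Among the calcium sensors for fast release, Syt1 averaged 5.21 ± 0.55, 4.78 ± 0.67, 5.30 ± 0.52 and 4.55 ± 0.80, and Syt2 averaged 4.05 ± 0.70, 4.26 ± 0.72, 3.66 ± 0.51 and 3.52 ± 0.77. The calcium-binding isoforms Syt5 and Syt9 averaged 5.02 ± 0.40, 4.82 ± 0.68, 4.93 ± 0.54 and 4.44 ± 0.98 for Syt5 and 4.55 ± 0.48, 4.34 ± 0.61, 4.46 ± 0.32 and 3.86 ± 0.70 for Syt9. Syt7, a slower sensor with higher calcium affinity, averaged 4.03 ± 0.48, 4.42 ± 0.47, 4.02 ± 0.36 and 4.24 ± 0.65. The highest synaptotagmin was Syt11, which does not act as a calcium sensor, at 6.58 ± 0.59, 6.34 ± 0.72, 6.46 ± 0.57 and 5.95 ± 0.86. Its relative Syt4 ranked 512 and averaged 5.66 ± 0.52, 5.33 ± 0.56, 5.73 ± 0.50 and 5.06 ± 0.79, and 14.74% of its exon bases are shared with an antisense gene. Syt13, another isoform that does not bind calcium, was low at 1.33 ± 0.83, 1.5 ± 0.59, 1.86 ± 0.43 and 1.59 ± 0.29. The levels of Syt3, at 1.19 ± 0.38, 0.76 ± 1.0, 1.28 ± 0.42 and 0.77 ± 0.88, and of Syt6, at 0.49 ± 0.11, 0.36 ± 0.18, 0.25 ± 0.19 and 0.11 ± 0.27, were the lowest among the tested synaptotagmins.

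The synaptotagmins under the filter were near the limit of detection or low. Syt10 had 0 to 24 reads per library and 0 reads in 4 libraries, and its sacral minus lumbar difference was 0.65 ± 2.81 (SD, n = 10 donors, unadjusted p = 0.482 by an exact two-sided permutation test that flips the sign of each donor). Syt12 had 54 to 202 reads and a difference of 0.24 ± 0.60 (SD, n = 10, same exact test, unadjusted p = 0.238). Cplx3, a complexin known from ribbon synapses, had 0 reads in 12 libraries and at most 11 in any, and its difference was 0.86 ± 1.90 (SD, n = 10, same exact test, unadjusted p = 0.186). The smallest p this test allows with 10 donors is 0.00195. Where no read was seen, as many as 3 could have been missed (95% limit), so Cplx3 below that level cannot be detected at this depth. Such limits cover counting error only.

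Among the tested genes, the plasma membrane SNAREs spanned the widest range of any role group. Snap25 averaged 7.38 ± 0.26, 7.38 ± 0.47, 6.89 ± 0.26 and 6.67 ± 0.61, and its relative Snap47 averaged 5.34 ± 0.53, 5.12 ± 0.49, 5.27 ± 0.36 and 4.91 ± 0.55, with 11.58% of the Snap47 exon bases shared with Jmjd4 on the other strand. Snap23, found in most cell types, averaged 2.47 ± 0.30, 2.57 ± 0.72, 2.71 ± 0.28 and 2.93 ± 0.52. Of the syntaxins, the ubiquitous Stx2 was highest at 3.02 ± 0.22, 3.13 ± 0.43, 2.98 ± 0.17 and 2.77 ± 0.37. Stx1a, the classical syntaxin of nerve terminals, ranked 6234 and averaged 2.24 ± 0.51, 2.45 ± 0.36, 2.28 ± 0.15 and 2.29 ± 0.62, and Stx3 was the lowest tested release gene at 0.09 ± 0.19, 0.06 ± 0.43, 0.03 ± 0.66 and 0.44 ± 0.61.

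Vamp2, the main synaptobrevin, led the vesicle SNAREs at 5.57 ± 0.39, 5.84 ± 0.39, 5.51 ± 0.16 and 5.71 ± 0.45. Vamp1, the other synaptobrevin, was lower at 2.38 ± 0.33, 2.33 ± 0.35, 1.97 ± 0.31 and 2.04 ± 0.31. Vamp3 (cellubrevin), of recycling endosomes in most cells, averaged 4.04 ± 0.22, 3.91 ± 0.36, 4.19 ± 0.09 and 3.94 ± 0.15, and Vamp4, of the trans-Golgi network and endosomes, averaged 2.69 ± 0.15, 2.67 ± 0.12, 2.56 ± 0.21 and 2.58 ± 0.13. Of the complexins, which bind the SNARE complex, Cplx1 and Cplx2 were high, while Cplx3 lay under the filter. Cplx1 averaged 7.16 ± 0.42, 7.10 ± 0.56, 6.69 ± 0.32 and 6.45 ± 0.72, and Cplx2 averaged 5.14 ± 0.40, 4.98 ± 0.41, 4.91 ± 0.19 and 4.81 ± 0.55. Nsf, the ATPase that recycles SNAREs, averaged 4.14 ± 0.50, 3.96 ± 0.48, 3.99 ± 0.27 and 3.63 ± 0.55, while Stxbp5 (tomosyn, an inhibitor of SNARE assembly) was low at 2.09 ± 0.28, 2.04 ± 0.15, 2.13 ± 0.24 and 2.14 ± 0.06.

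The priming and active zone genes all lay within a narrow band. Unc13a, the chief Munc13 of glutamate synapses, averaged 3.02 ± 0.42, 2.97 ± 0.50, 2.92 ± 0.39 and 2.6 ± 0.49, Unc13b averaged 2.15 ± 0.15, 2.06 ± 0.15, 2.31 ± 0.23 and 2.27 ± 0.15, and Unc13c averaged 2.79 ± 0.12, 2.47 ± 0.32, 2.36 ± 0.28 and 2.04 ± 0.14. Rims1 and Rims2, the active zone scaffolds, averaged 3.07 ± 0.45, 3.14 ± 0.34, 3.05 ± 0.36 and 2.79 ± 0.68 for Rims1 and 2.95 ± 0.28, 2.91 ± 0.27, 2.95 ± 0.26 and 2.75 ± 0.41 for Rims2. Of the Rab3 proteins, the small GTPases of the vesicle, Rab3c and not Rab3a had the highest level, at 6.32 ± 0.41, 6.06 ± 0.50, 6.0 ± 0.27 and 5.53 ± 0.61 against 5.03 ± 0.46, 5.16 ± 0.55, 4.84 ± 0.29 and 4.75 ± 0.66. Rab3b was lower at 3.02 ± 0.43, 3.11 ± 0.59, 2.58 ± 0.38 and 2.49 ± 0.60, and 9% of its exon bases overlap an antisense gene. The Rab3 effector rabphilin, Rph3a, averaged 4.47 ± 0.44, 4.36 ± 0.59, 4.2 ± 0.39 and 3.99 ± 0.70.

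Among the vesicle proteins, Syp averaged 6.40 ± 0.67, 6.67 ± 0.75, 6.27 ± 0.56 and 6.26 ± 1.0, and 16.79% of its exon bases overlap an antisense gene. Syn1 averaged 6.41 ± 0.41, 6.27 ± 0.47, 6.28 ± 0.38 and 5.95 ± 0.77, Syn2 averaged 3.57 ± 0.52, 3.45 ± 0.47, 3.63 ± 0.36 and 3.23 ± 0.57, and Syn3 averaged 3.80 ± 0.16, 3.80 ± 0.16, 3.96 ± 0.17 and 3.98 ± 0.14, with 14.11% of the Syn3 exon bases shared with Timp3 on the other strand. All 3 SV2 genes, which encode glycoproteins of the vesicle membrane, were expressed. Sv2b averaged 5.56 ± 0.66, 5.43 ± 0.65, 5.51 ± 0.58 and 5.05 ± 0.97, Sv2c averaged 5.28 ± 0.64, 5.04 ± 0.75, 5.14 ± 0.57 and 4.55 ± 0.82, and Sv2a was lowest at 3.63 ± 0.56, 3.68 ± 0.67, 3.62 ± 0.59 and 3.20 ± 0.84. Whether reads were counted by strand is not stated, so reads of the antisense partners named here cannot be separated.

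The first comparison asks which release genes differ between lumbar and sacral ganglia. Snap25, Unc13c and Rab3b were lower in sacral ganglia, and no release gene was called higher. In all, 3 of 40 tested release genes, 7.5%, therefore passed an adjusted p of 0.05 in the lower direction, where 4.03% of all 14529 genes tested did, and 0 passed in the higher direction, where 2.7% of all genes did. The share in the lower direction is near that background. The calls rest on comparing the ganglia within each embryo. With no replicate block, that is with donor left out of the model, 0 of the 40 and 154 of all 14529 genes were called by limma. In that fit 6 of the 40 had an unadjusted p under 0.05, and the lowest unadjusted p was 0.000921. Without donor F10, 1 release gene (Unc13c) and 401 of all genes were called in either direction, without F8, 7 and 1594, and without F7 the same 3 release genes and 511 of all genes.

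Snap25 (ENSMUSG00000027273) lies on the plus strand of the mm9 genome at chr2:136539189-136608164. Its level in lumbar ganglia was 7.32, 7.48, 6.96, 7.64 and 7.49 in the male donors and 7.64, 7.04, 6.74, 7.75 and 7.74 in the female donors, in log2 RPKM and, here as for the other genes, in the donor order M1, M3, M5, M7 and M8 and F3, F7, F8, F9 and F10. In sacral ganglia, it was 6.97, 7.19, 6.52, 6.76 and 7.0 in the male donors and 7.10, 5.61, 6.73, 7.07 and 6.83 in the female donors. The sacral library was the lower in 10 of 10 donors, although the lumbar and sacral ranges overlap, and the gap was widest in F7 (-1.43) and narrowest in F8 (-0.01). The fitted difference was -0.60 ± 0.14 (SE) on the log2 scale, 1.52-fold lower in sacral ganglia (adjusted p = 0.0162, limma). Without donor F7 it was -0.51 (adjusted p = 0.0235), and without F10 the adjusted p was 0.0506.

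Rab3b (ENSMUSG00000003411, mm9 chr4:108551668-108615929, plus strand) encodes one of the vesicle GTPases. In lumbar ganglia it was 3.08, 3.17, 2.29, 3.15 and 3.43 in the male donors and 3.63, 2.26, 2.73, 3.49 and 3.43 in the female donors. Its sacral levels were 2.78, 2.64, 1.92, 2.91 and 2.64 in the male donors and 3.19, 1.53, 2.55, 2.6 and 2.57 in the female donors. It was also lower in 10 of 10 donors, with differences of -0.18 (F8) to -0.89 (F9) on the log2 scale, and 1.95% of all genes tested were lower in every donor. The donors with low Rab3b in one ganglion, M5 and F7, had it low in the other as well. The fitted difference was -0.53 ± 0.15 (SE), 1.45-fold lower (adjusted p = 0.0423, limma). This call passed the threshold in only 2 of 10 leave-one-donor-out fits, those without F7 and without F8, and the adjusted p over the 10 ran from 0.0227 to 0.11 (without F10).

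Unc13c (ENSMUSG00000062151, mm9 chr9:73328677-73781374, minus strand) encodes Munc13-3, a priming factor. Its lumbar levels were 3.0, 2.69, 2.75, 2.78 and 2.73 in the male donors and 2.70, 2.41, 2.86, 2.03 and 2.36 in the female donors. Its sacral levels were 2.22, 2.54, 2.40, 2.69 and 1.97 in the male donors and 2.13, 1.79, 2.10, 2.06 and 2.11 in the female donors. It was lower in 9 of 10 donors, and F9 differed by 0.03 in the other direction. The fitted difference was -0.43 ± 0.09 (SE), 1.35-fold lower (adjusted p = 0.0101, limma), and it passed the threshold without any 1 donor, but not without both M5 and F7 (adjusted p = 0.0866). Its 2 relatives were not called: Unc13a differed by -0.24 ± 0.15 (adjusted p = 0.328), and Unc13b by 0.18 ± 0.07 (adjusted p = 0.144), the higher in the sacral library in 9 of 10 donors.

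**Figure D2:**
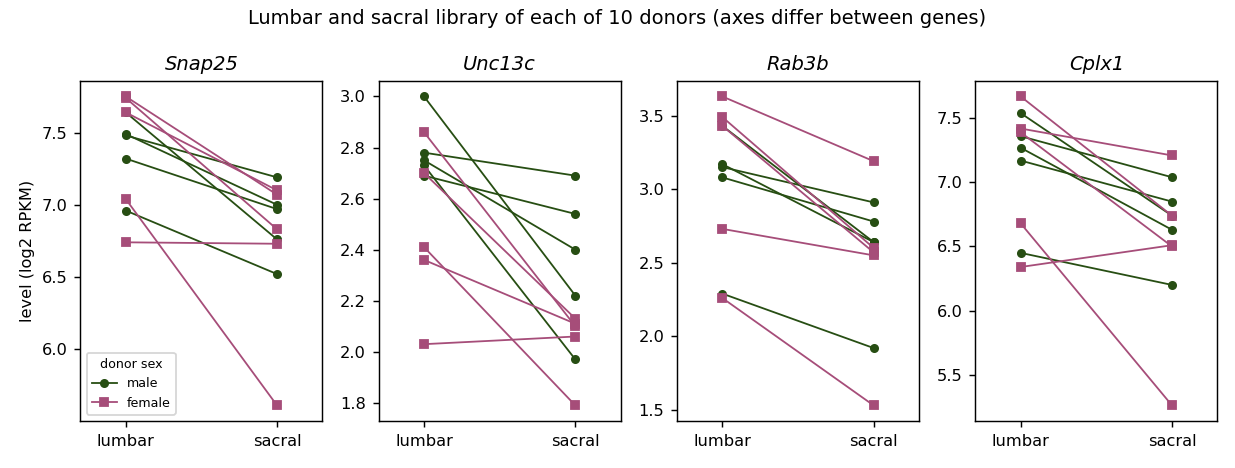
Level (log2 RPKM) of Snap25, Unc13c, Rab3b and Cplx1 in the lumbar and the sacral library of each donor, 1 line per donor, coloured by sex. Snap25 and Rab3b fall in all 10 donors, Unc13c and Cplx1 in 9, and the lowest sacral point in each panel is that of donor F7.

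Cplx1 lay just outside the threshold. Its lumbar levels were 7.17, 7.36, 6.45, 7.27 and 7.54 in the male donors and 7.42, 6.68, 6.34, 7.67 and 7.39 in the female donors, and its sacral levels were 6.85, 7.04, 6.20, 6.63 and 6.74 in the male donors and 7.21, 5.26, 6.51, 6.74 and 6.50 in the female donors. The sacral library was lower in 9 of 10 donors, and F8 differed by 0.17 in the other direction. The fitted difference was -0.56 ± 0.17 (SE, adjusted p = 0.052, limma). Without F8 the adjusted p was 0.0142, and without any other 1 donor it stayed above the threshold.

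No other release gene passed the test. The Rab3 group had the lowest median difference, -0.37 over 4 genes, all of them negative, with Rab3c at -0.43 ± 0.15 (adjusted p = 0.0942). The largest difference among the synaptotagmins was that of Syt2 at -0.57 ± 0.22 (adjusted p = 0.114), and the median of the 10 was -0.16. Vamp1 had the largest difference of the vesicle SNAREs, -0.35 ± 0.12 (adjusted p = 0.0808), and the median of the 4 was -0.10. Among the vesicle proteins, Sv2c differed most, by -0.32 ± 0.22 (adjusted p = 0.38), with a median of -0.22 over 7 genes. The medians were -0.10 for the 6 plasma membrane SNAREs, -0.22 for the 4 SNARE regulators and -0.18 for the 5 priming and active zone genes.

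Of the 40 tested genes, 32 had a negative estimate, and the median difference was -0.21 on the log2 scale, beside -0.05 over all genes tested, 58% of which were negative. Without donor F7 the median over the release genes was -0.13, and under quantile normalization it was -0.11, with 28 negative, beside -0.02 over all genes. The 8 positive estimates ran up to 0.31 ± 0.18 for Syt13 (adjusted p = 0.3) and 0.30 ± 0.15 for Snap23 (adjusted p = 0.232). By donor, the median over the 40 genes ran from -0.77 in F7 to 0.31 in F8, and it was below 0 in 6 donors.

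**Figure D3:**
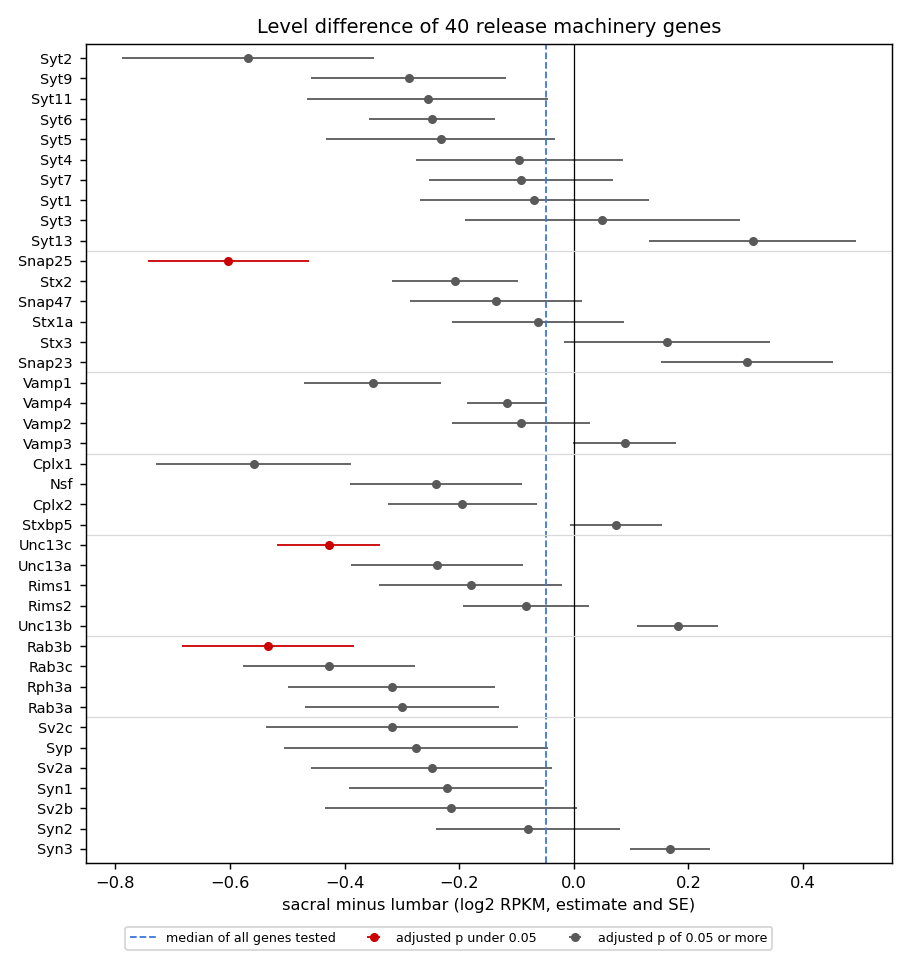
Fitted sacral minus lumbar difference (log2 RPKM) of the 40 tested release genes with its standard error, grouped by role in the order of the text, with the genes past the threshold in red. The dashed line marks the median of all genes tested, -0.05, and 32 of the 40 points lie left of 0.

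Markers of the cell types in the ganglion were read beside these genes. Of the 12 pan-neuronal markers, 1, the neurofilament gene Nefl, was called lower in sacral ganglia and 0 higher. Their median difference was -0.31, and it was negative in 9 of 10 donors, with -1.13 in F7. Their summed level was 1360 to 2700 RPKM in the lumbar male, 1490 to 3230 in the lumbar female, 1150 to 2090 in the sacral male and 651 to 2330 in the sacral female libraries. When each library was centred on the median of those markers, none of the 3 genes kept its call: the difference was -0.13 for Snap25 (adjusted p = 0.135), -0.06 for Rab3b (adjusted p = 0.613) and 0.05 for Unc13c (adjusted p = 0.799). That centring takes the same value from every gene of a library. It moved the median difference of all genes to 0.43 and called 8150 of them, and 21 release genes were called, all higher. Of the 11 Schwann cell and satellite glia markers, 5 were called lower, and of the 7 fibroblast and meninges markers, 4 were called higher. Their part in the result was not tested.

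The second relation is that of each release gene to the mt-Rnr2 level of the library, fitted as a slope within the 4 groups. On the deposited scale, most vesicle and fusion genes fell as mt-Rnr2 rose and Snap23, Stx3 and Vamp3 rose. With each library centred on the pan-neuronal markers, 9 slopes were called positive and 6 negative, beside 6551 of all genes in either direction. That centring takes the same value from every gene of a library, so the turn toward positive slopes is not particular to the release genes. Of the 40 tested genes, 30 were called with a negative slope, 75%, beside 33.8% of all 14528 genes tested, and 3 with a positive slope, 7.5%, beside 15.3% of all genes. The median slope over the 40 was -0.47 log2 RPKM per log2 unit of mt-Rnr2, beside -0.10 over all genes, and under quantile normalization it was -0.30, beside -0.06. All 20 libraries had the same median over the genes with a value, 0.93 log2 RPKM, as deposited.

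The steepest slopes belonged to vesicle proteins and synaptotagmins. Syp in lumbar ganglia was 6.25, 6.79, 5.31, 6.66 and 7.0 in the male donors and 7.20, 5.81, 5.93, 7.4 and 7.01 in the female donors, and in sacral ganglia it was 6.54, 6.64, 5.28, 6.57 and 6.31 in the male donors and 7.12, 4.54, 6.44, 6.76 and 6.41 in the female donors. The high values came from libraries with low mt-Rnr2, such as both libraries of F3, and the low ones from M5 and F7. Its slope was -0.80 ± 0.14 (SE, adjusted p = 0.000282), a 1.75-fold lower level for each log2 unit of mt-Rnr2. The SV2 proteins followed with -0.75 ± 0.13 for Sv2c, -0.74 ± 0.12 for Sv2a and -0.72 ± 0.15 for Sv2b. Syn1 (-0.47 ± 0.13) and Syn2 (-0.51 ± 0.10) fell less steeply, and Syn3 was not called (-0.09 ± 0.06, adjusted p = 0.213).

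In all, 8 of the 10 tested synaptotagmins were called with negative slopes, from -0.78 ± 0.12 for Syt2 to -0.47 ± 0.12 for Syt7. Between them lay Syt11 (-0.74 ± 0.13), Syt13 (-0.67 ± 0.10), Syt1 (-0.64 ± 0.13), Syt5 (-0.61 ± 0.16), Syt4 (-0.60 ± 0.12) and Syt9 (-0.57 ± 0.11). Syt3 (-0.48 ± 0.20, adjusted p = 0.057) and Syt6 (0.03 ± 0.10, adjusted p = 0.829) were not called. All 4 genes of the Rab3 group fell, with slopes of -0.56 ± 0.10 for Rab3b, -0.53 ± 0.11 for Rab3a, -0.47 ± 0.10 for Rab3c and -0.43 ± 0.14 for Rph3a. The fusion regulators Cplx1 (-0.56 ± 0.11), Cplx2 (-0.38 ± 0.10) and Nsf (-0.49 ± 0.09) fell as well, while Stxbp5 was not called (-0.05 ± 0.08, adjusted p = 0.617).

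The SNAREs went both ways. The neuronal SNAREs Snap25 (-0.36 ± 0.11), Stx1a (-0.51 ± 0.09), Vamp2 (-0.38 ± 0.08) and Vamp1 (-0.26 ± 0.09) fell with mt-Rnr2, and so did Snap47 (-0.54 ± 0.09) and Stx2 (-0.32 ± 0.08). Snap23, Stx3 and Vamp3 rose. Snap23 in lumbar ganglia was 2.55, 2.19, 2.90, 2.51 and 2.19 in the male donors and 1.98, 3.49, 3.22, 2.09 and 2.07 in the female donors, and in sacral ganglia it was 2.83, 2.48, 3.14, 2.45 and 2.66 in the male donors and 2.11, 3.51, 3.13, 2.90 and 3.02 in the female donors. It was the only one of the 40 with its highest level in the sacral library of F7, where 27 others had their lowest, and its slope was 0.51 ± 0.10 (adjusted p = 0.000485). The slopes were 0.44 ± 0.15 for Stx3 (adjusted p = 0.0179) and 0.20 ± 0.07 for Vamp3 (adjusted p = 0.0202), and that of Vamp4 was not called (0.09 ± 0.06, adjusted p = 0.22). With each donor left out in turn, the slope of Snap23 passed the threshold in 10 of 10 fits. That of Stx3 passed in 9, that of Vamp3 in 7 and that of Vamp1 in 8, and those of the other falling SNAREs passed in all 10.

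The priming genes were also divided. Unc13a (-0.45 ± 0.10), Rims1 (-0.40 ± 0.12) and Rims2 (-0.29 ± 0.08) fell, whereas Unc13b (0.03 ± 0.07, adjusted p = 0.781) and Unc13c (0.02 ± 0.08, adjusted p = 0.844) had slopes near 0. Unc13c was thus called for spinal level and not for mt-Rnr2, and with mt-Rnr2 as a covariate its level difference was -0.43 (adjusted p = 0.015). With that covariate, 1440 of all 14528 genes were called for level in either direction, against 978 of 14529 without it, and 7 release genes were called lower in sacral ganglia: Snap25, Unc13c, Rab3b, Cplx1, Rab3c, Syt2 and Vamp1.

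**Figure D4:**
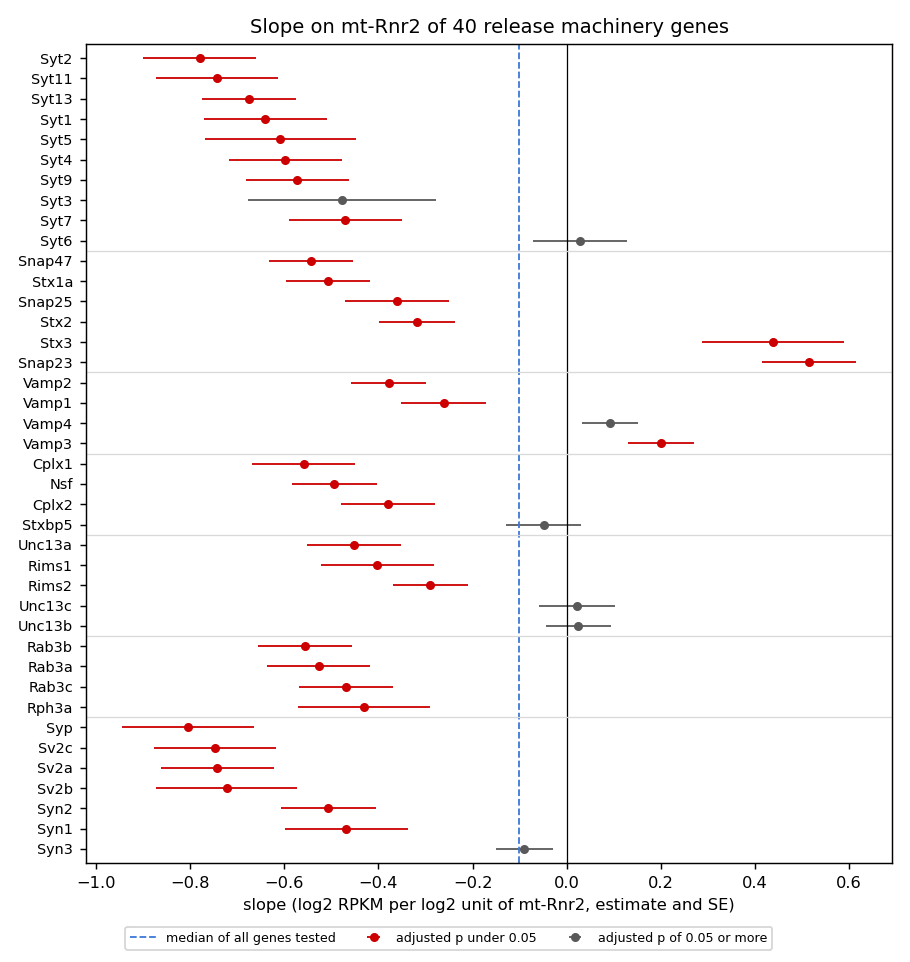
Slope of the level on mt-Rnr2 (log2 RPKM per log2 unit) for the 40 tested release genes with its standard error, grouped by role in the order of the text, with the genes past the threshold in red. The dashed line marks the median of all genes tested, -0.10, and Snap23, Stx3 and Vamp3 are the red points right of 0.

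**Figure D5:**
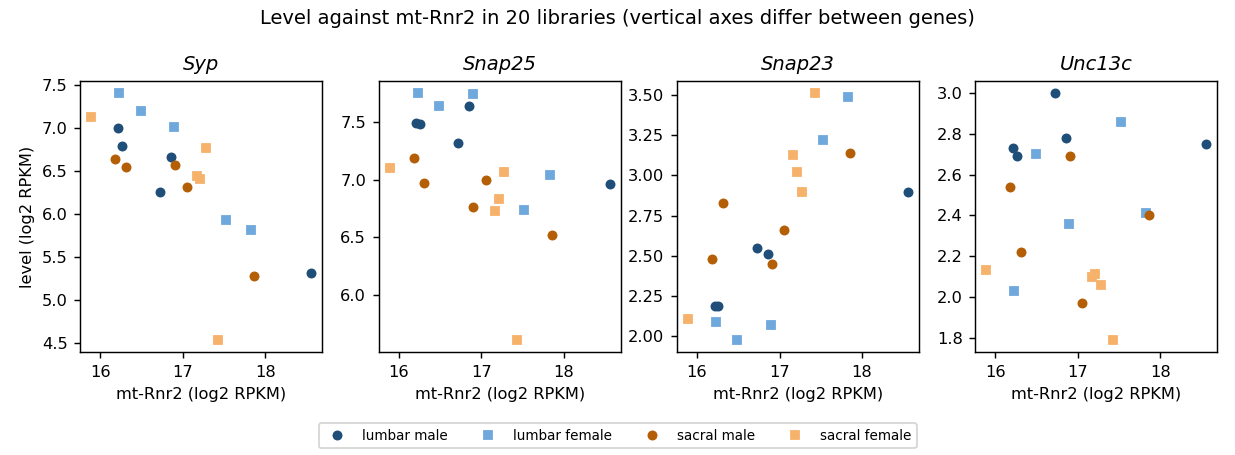
Level (log2 RPKM) of Syp, Snap25, Snap23 and Unc13c against the mt-Rnr2 level (log2 RPKM) in the 20 libraries, coloured by group. Syp and Snap25 decline and Snap23 climbs as mt-Rnr2 rises from 15.89 to 18.56, Unc13c has a slope near 0, and the sacral female library of F7 is the lowest point for Syp, Snap25 and Unc13c.

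The slope calls depended on which libraries entered. In the 10 lumbar libraries alone, 32 release genes and 6008 of all 14528 genes were called, and the median slope of the release genes was -0.49. In the 10 sacral libraries alone, 0 release genes and 577 of all genes were called by limma, where 24 release genes had an unadjusted p under 0.05, 33 of 40 slopes were negative, the median was -0.43 and the lowest adjusted p was 0.0651. Without donors M5 and F7, an alternative chosen after seeing the data, 18 release genes and 2064 of all genes were called. Without F7 alone, 33 release genes and 6415 of all genes were called, with a median slope of -0.42, and the slope was -0.70 for Syp and 0.43 for Snap23. The pan-neuronal markers fell with mt-Rnr2 as well, 12 of 12 called with a median slope of -0.48. Their part in the slopes of the release genes was not tested.

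The third comparison is between the sexes. In lumbar ganglia, 0 of 40 release genes were called by limma, where 0.33% of all genes were, and 0 had an unadjusted p under 0.05. In sacral ganglia, 0 were called, where 1.01% of all genes were, and 2 of the release genes and 2256 of all genes had an unadjusted p under 0.05. Those 2 were Syt1 (-0.75 ± 0.34, female minus male, SE, adjusted p = 0.3) and Syt4 (-0.67 ± 0.31, adjusted p = 0.314). The sacral median over the 40 genes was -0.23, with 31 negative, and without donor F7 it was -0.04, with 21 negative and 0 at an unadjusted p under 0.05. For the difference of the level effect between the sexes, 0 were called, where 0% of all genes were, and 0 of the release genes and 470 of all genes had an unadjusted p under 0.05. Snap25 differed by 0.00 ± 0.25 (female minus male, SE) in lumbar and by -0.22 ± 0.25 in sacral ganglia. Syp differed by 0.27 ± 0.40 and -0.01 ± 0.40. A p that misses the threshold does not show that the sexes were alike, and differences of the size of these standard errors could not be seen with 5 embryos of each sex.

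Other genes of the release pathway, a list of 80 such as further SNAREs, transmitter transporters, Rab27 and its effectors and granule proteins, were read beside these. Of the 64 tested, 6 were called lower in sacral ganglia and 0 higher, where 4.03% and 2.7% of all genes were. Their median difference was -0.14, beside -0.05 over all genes. The lower genes were Slc17a7 (-1.29 ± 0.27, adjusted p = 0.00744), which encodes the vesicular glutamate transporter VGLUT1, Sytl2 (-0.70 ± 0.14, adjusted p = 0.00571), Rab27a (-0.57 ± 0.14, adjusted p = 0.0231), Synpr (synaptoporin, -0.49 ± 0.13, adjusted p = 0.0269), Rab27b (-0.48 ± 0.12, adjusted p = 0.0184) and Vti1b (-0.39 ± 0.09, adjusted p = 0.0176). Sytl2 encodes an effector of the Rab27 proteins, which act in secretory granule docking. On mt-Rnr2, 38 of the 64 were called with a negative and 2 with a positive slope, where 33.8% and 15.3% of all genes were. The median was -0.33, beside -0.10 over all genes. The steepest negative slopes were those of Chgb (chromogranin B, a granule protein, -0.80 ± 0.12) and Svop (an SV2-related protein, -0.80 ± 0.14). The 2 called positive were Vamp5 (0.77 ± 0.21) and Stxbp3a (0.67 ± 0.11), which encode a SNARE of muscle and a Munc18 protein of most cell types.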

How the data were processed

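Whole lumbar and sacral DRG of 10 embryos were compared. Per the labels and the study's methods, the authors amplified total RNA with a whole-transcriptome cDNA kit, aligned reads to mm9 with Subread (submitters' notes: 1.18 and 1.20.6), kept unique hits, counted Ensembl genes with featureCounts, applied TMM (edgeR 3.12.1) and voom (limma 3.26.9), and deposited log2 RPKM values. Strand use is not given in the sources used here. With GENCODE M1 exon lengths, 98.23% to 98.49% of values per library came within 0.05 of a whole read, a share taken over genes with lower read numbers only. The recovered reads gave the depths. For Unc13a, no reads were recovered. A blank was set to the value of 0.5 reads.

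The deposited log2 values of 14529 genes with a group mean of at least 1 RPKM were fitted with limma 3.58.1 (R 4.3.3, statmod 1.5.0), with group means, donor as a block, a mean-variance trend, two-sided tests and Benjamini-Hochberg adjustment over all genes at 0.05. The slope on mt-Rnr2 was a further term, with mt-Rnr2 itself left out. The script was tested on simulated data. Both libraries of a donor come from 1 embryo, which pairs them. Litters are not given in the sources used here. Their deviations from the group means correlated at -0.166 (M8) to 0.676 (M5) over genes, and the consensus was 0.342. Coordinates of genes are mm9, and promoters come from RefSeq (GRCm38.p6). The members and lists were chosen with earlier results of these data known. Group values are printed for all 40 tested genes, which include those the naming rule asked for: called genes, the 5 highest and 5 lowest, and the largest difference in each role.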

Additional observations from a re-analysis of the deposited data

Results flagged for a closer look

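In 160 checks of a release gene within a group of 5 libraries, 20 found a library far from the other 4 by Dixon's criterion, in 15 genes. Chance flags about 1 in 20 such groups, and the genes share their libraries, so the flags are not independent.

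The sacral female library of F7 accounted for 9 of them, each time as the lowest of its group. There, the level in log2 RPKM was 3.18 for Syt1, 2.72 for Syt5, 5.61 for Snap25, 3.97 for Snap47, 1.79 for Unc13c, 2.80 for Rph3a, 4.63 for Syn1, 3.38 for Sv2b and 4.54 for Syp. This library also had the fewest reads (19606265) and the lowest summed level of the pan-neuronal markers (651 RPKM).

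Both libraries of M5, which had the highest mt-Rnr2 level of their groups (18.56 lumbar and 17.86 sacral), were low as well. In the lumbar library of M5, the level was 4.77 for Syt4, -0.14 for Syt13, 4.42 for Snap47, 3.28 for Nsf and 4.40 for Sv2b. In its sacral library, it was 4.64 for Snap47, 1.92 for Rab3b and 5.28 for Syp. The part of mt-Rnr2 and of the neuronal markers in these low levels was not tested.

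The other 3 libraries were set apart in another way. Syt3 was highest, at 2.01, in the sacral library of M7, Unc13c was highest, at 3.0, in the lumbar library of M1, and Vamp4 was lowest, at 2.47, in the lumbar library of F9.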

How the results depend on the processing

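In the level comparison, 3 release genes were called. With no replicate block, so that the libraries were not paired by donor, 0 were called. The calls over all genes moved too, from 978 in the reported fit to 154 with no block. With library weights 13 release genes were called (11 lower, 2 higher) and 2998 of all genes, with upper quartile centring 5 (4 lower and Syn3 higher) and 910, with mt-Rnr2 as a covariate 7 and 1440, and with each donor left out in turn between 1 (without F10, 401 of all genes) and 7 (without F8, 1594). Centring on the pan-neuronal markers moved the median of all genes to 0.43 and called 8150 genes. There, 21 release genes were called, all higher, their median difference was 0.26, and Unc13c turned to 0.046. The other alternatives (donor as a fixed term, no trend, no filter, 4 RPKM, voom on recovered reads, quantile normalization, blanks at 0.25 reads, and, chosen after seeing the data, without M5 and F7) called 2 to 4. The 33 slopes called on mt-Rnr2 (7137 over all genes) became 15 (6551) with pan-neuronal centring, 0 (577) in sacral libraries alone and, chosen after seeing the data, 18 (2064) without M5 and F7. Pan-neuronal centring turned the slopes of Stx2 (0.122), Snap25 (0.082), Vamp1 (0.179), Vamp2 (0.06), Cplx2 (0.061), Rims1 (0.041), Rims2 (0.151) and Rph3a (0.011). Of 625 slope values over the alternatives run for the 33 genes, 538 kept direction and call, 79 kept direction only and 8 turned. The causes were not tested. The sex comparisons and the interaction called 0 release genes under each alternative run for them. Depth limited Syt10 and Cplx3.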

Other observations

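Other marker lists were read in the same fit as the release genes. Of 7 markers of large myelinated sensory neurons, 3 were called lower in sacral ganglia: Pvalb (-1.33 ± 0.15, adjusted p = 1.26e-05), Nefm (-1.14 ± 0.21, adjusted p = 0.00381) and Nefh (-0.86 ± 0.18, adjusted p = 0.00871). The other 4 were not called and lay on both sides of 0, from -0.36 ± 0.19 for Runx3 to 0.70 ± 0.35 for Spp1 (adjusted p = 0.227). Of 9 markers of small sensory neurons, 1 was called higher and 1 lower, and of 4 endothelial markers, 2 were called higher. Of 5 cartilage markers, 3 were tested and 1, Col2a1, was called higher in sacral ganglia (0.80 ± 0.16, adjusted p = 0.00554), while 2 of the 3 were called with a positive slope on mt-Rnr2. On mt-Rnr2, 4 of the 7 large and 6 of the 9 small sensory neuron markers were called with a negative slope and 0 with a positive one. The part of these markers in the values of the release genes was not tested.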
